A study of Mus musculus with 12 samples.

Results

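Immediate early genes are the genes that a cell switches on first after a stimulus, without making new protein beforehand. The 34 genes described here are 16 early members, 9 members that are usually induced later (delayed) and 9 members that are less strictly tied to neuronal activity (other). They were taken by gene name from a list of neuronal immediate early and activity-induced genes that was drawn up with earlier results of these data known, with no threshold on a measured value, and are 34 of the 55536 genes in the count tables. Their RNA was counted in bulk cerebellum (CB) and cerebral cortex (CX) of Snx14-KO mice and their WT littermates at 1 month of age, with 3 libraries in each of the 4 groups. The study asked what precedes the loss of Purkinje cells in the cerebellum, and used the cortex as a tissue that does not degenerate. Snx14-KO mice were homozygous for a germline indel allele made with CRISPR/Cas9 in C57BL/6J embryos, a single allele that is not restricted to any cell type, and the line was backcrossed to C57BL/6J. WT and Snx14-KO mice share this background, age and dissection, and mice of both sexes were used. Each library is named below by its genotype and by the mouse number of its label, which is the same in both tissues of a mouse.

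In neurons, calcium entry and kinase signaling act on transcription factors that are already present, among them CREB and SRF, and these switch on genes such as Fos, Egr1, Arc and Npas4 within minutes. Many of the early products are themselves transcription factors, while others act at synapses or switch off the kinases. The RNAs are short-lived, so their level in frozen tissue reflects recent stimulation, and handling and the time of day are known to move it.

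Gene counts ran from 16672589 to 19887427 per library. Values are given as CPM, which are read counts per library size after TMM scaling over all 12 libraries. Snx14, the mutated gene, was at 63.8 to 66.4 CPM in WT and 10.4 to 11.2 CPM in Snx14-KO cerebellum, and at 53.5 to 59.9 CPM in WT and 7.65 to 8.47 CPM in Snx14-KO cortex (log2 fold changes of -2.57 ± 0.08 and -2.80 ± 0.10, SE). The labelled tissues carried their markers. All 9 granule cell and all 8 Purkinje cell markers were higher in WT cerebellum, and 8 of 9 cortical excitatory neuron markers were higher in WT cortex, by the test described next. In bulk tissue, fewer cells of a type and less RNA per cell cannot be told apart. Reads were counted without regard to strand, and 52.6% of the exon bases of Jund, 22.1% of those of Dusp5 and 14.4% of those of Bdnf also belong to a gene on the opposite strand. Jun, Junb, Tiparp and Dusp1 shared from 0.332% to 7.52% of their bases in this way, and the other members shared none.

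Most of the early transcription factors and synaptic genes were far lower in cerebellum than in cortex. Each gene was tested by quasi-likelihood in edgeR, its p adjusted over all genes after Benjamini and Hochberg, and a gene was called at an adjusted p under 0.05 with an absolute log2 fold change over 0.50. Between WT tissues, 20 of 34 members were called, against 40.4% of 18543 genes tested. Of these, 17 were lower in cerebellum (21.4% of all genes) and 3 were higher (19% of all genes). In Snx14-KO mice, a comparison that uses none of the WT libraries, 19 members were called, 16 lower and 3 higher, against 37.9% of 18542 genes, of which 19.6% were called lower and 18.2% higher. All 19 were also called in WT mice, in the same direction. Groups did not overlap for 20 members in WT mice (64.2% of all genes) and 18 in Snx14-KO mice (60.6%). Without regard to the adjusted p, 22 members in WT and 20 in Snx14-KO mice had an unadjusted p under 0.05 (61.9% and 57.4% of all genes), and 24 and 23 differed by more than 0.50 (45.7% and 44.5%). Values were above 0 for 4 and 10 of 34 members, against 51.6% and 51.4% of all genes. Fosb, Egr2 and Egr3 in WT mice and Egr2 in Snx14-KO mice had under 10 reads in a cerebellar library and met the filter on low counts through their cortex reads, so that they had to differ. Without them, 17 of 31 members were called in WT mice (14 lower) and 18 of 33 in Snx14-KO mice (15 lower). The median member differed by -1.22 in WT and -0.80 in Snx14-KO mice on the log2 scale (-0.95 and -0.77 without those with few reads), against 0.02 over all genes in both.

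The Egr factors, zinc finger proteins that carry the first wave of transcription into later gene programs, were all far lower in cerebellum. Egr3 was at 196, 147 and 234 CPM in cortex of WT mice 1, 2 and 3 and at 1.17, 0.463 and 0.372 CPM in their cerebellum. The difference was -8.15 ± 0.28 (SE, n = 3 against 3) on the log2 scale, given without a test because Egr3 met the filter through cortex alone. In Snx14-KO mice Egr3 was at 99.3, 180.3 and 157 CPM in cortex and 3.78, 0.993 and 3.30 CPM in cerebellum, a difference of -5.73 ± 0.35 (adjusted p = 5.76e-07, edgeR). No cerebellar library came near a cortical one. Egr2 was barely present in cerebellum, with 3, 0 and 2 reads in WT and 0, 4 and 5 in Snx14-KO mice. In cortex it had 572, 64 and 261 reads in WT and 24, 337 and 201 in Snx14-KO mice, so its level in cortex also spread widely. A fitted fold of Egr2 depends on these few cerebellar reads and is not read further. Egr1 was at 439.8, 223 and 324 CPM in WT cortex and at 18.6, 20.9 and 22.7 CPM in WT cerebellum, which is -3.98 ± 0.22 on the log2 scale (adjusted p = 1.07e-07, edgeR). Egr4 differed by -3.17 ± 0.30 in WT and -2.93 ± 0.37 in Snx14-KO mice.

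Among the neuronal effectors, Arc, which acts at synapses in the removal of AMPA receptors, was at 528, 121 and 324 CPM in WT cortex and 17.3, 12.8 and 15.3 CPM in WT cerebellum. It was at 43.3, 405 and 249 CPM in Snx14-KO cortex and 16.5, 12.5 and 10.2 CPM in Snx14-KO cerebellum. The differences between tissues were -4.41 ± 0.45 in WT and -4.14 ± 0.66 in Snx14-KO mice (adjusted p = 1.28e-05 and 0.000453, edgeR). Npas4, a transcription factor induced by calcium entry in neurons, differed by -3.66 ± 0.50 in WT and -2.88 ± 0.58 in Snx14-KO mice. Homer1, a scaffold of the postsynaptic density, was the steadiest of this group. It was at 268, 298 and 355 CPM in WT cortex and 37.9, 40.3 and 33.9 CPM in WT cerebellum, a difference of -3.03 ± 0.11 (adjusted p = 4.06e-09, edgeR). Bdnf, a secreted neurotrophin, differed by -1.71 ± 0.22 in WT and -1.13 ± 0.27 in Snx14-KO mice. The counts do not separate the short activity-induced form of Homer1 from the long forms, nor the Bdnf transcripts made from different promoters.

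The AP-1 subunits, which pair as Fos and Jun proteins to bind DNA, did not move as a block. Fosl2 and Junb were called lower in cerebellum in both genotypes. They differed by -2.30 ± 0.31 and -2.66 ± 0.24 in WT mice and by -1.82 ± 0.35 and -2.29 ± 0.26 in Snx14-KO mice. Fosb was called lower in Snx14-KO cerebellum (-2.97 ± 0.41). In WT cerebellum it had 20, 6 and 1 reads and met the filter through cortex. Its difference of -4.94 ± 0.53 in WT mice is therefore given without a test. Junb was at 146, 68.3 and 131 CPM in WT cortex and 17.8, 19.2 and 17.1 CPM in WT cerebellum. Jun, Jund and Maff were not called in either genotype, and Jund was at 182, 159.8 and 155 CPM in WT cerebellum and 198, 176 and 188 CPM in WT cortex. Fos was not called either. It was at 75.6, 15.6 and 52.9 CPM in WT cortex and 45.3, 9.49 and 19.2 CPM in WT cerebellum, so that it was lower in the cerebellum of every WT mouse although the groups overlapped. Its difference was -0.95 ± 0.56 in WT mice (adjusted p = 0.17, edgeR). With the mouse number as a block, Fos, Nr4a3 and Dusp4 were also called lower in WT cerebellum, and Nr4a3, Btg2 (both lower) and Klf4 (higher) in Snx14-KO cerebellum. Over all genes the block did not raise the number of calls (7449 against 7496 in WT, 6866 against 7020 in Snx14-KO mice).

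Of the orphan nuclear receptors of the Nr4a family, Nr4a1 and Nr4a2 were called lower in cerebellum, by -2.86 ± 0.47 and -2.14 ± 0.47 in WT and by -2.30 ± 0.59 and -1.63 ± 0.60 in Snx14-KO mice. The call of Nr4a2 in Snx14-KO mice (adjusted p = 0.0425, edgeR) was lost with DESeq2, with scaling by total count, and with any 1 Snx14-KO library other than cerebellum 2 left out. With those left out in turn its difference lay between -1.69 and -1.13. Nr4a3 was not called, at -1.36 ± 0.57 in WT and -0.82 ± 0.57 in Snx14-KO mice. Ier5 and Klf10, a Krüppel-like factor induced by TGF-beta, were lower in cerebellum by -2.42 ± 0.12 and -1.99 ± 0.24 in WT mice, and by -2.35 ± 0.16 and -2.32 ± 0.29 in Snx14-KO mice. Btg2, an antiproliferative factor, was called in WT mice only (-1.08 ± 0.28 in WT, -0.77 ± 0.31 in Snx14-KO mice), and the 2 differences were not called different in the interaction test given below.

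The dual specificity phosphatases, which inactivate the MAP kinases that induce early genes, went in both directions. Dusp5, which acts on ERK in the nucleus, was at 104, 77.3 and 69.0 CPM in WT cerebellum and 23.3, 9.14 and 13.0 CPM in WT cortex, and was thus higher in cerebellum by 2.46 ± 0.28 (adjusted p = 2.46e-05, edgeR). In Snx14-KO mice it was at 43.4, 84.8 and 60.4 CPM in cerebellum and 5.48, 15.6 and 21.5 CPM in cortex (2.14 ± 0.39, adjusted p = 0.00112). Dusp6, which acts on ERK in the cytoplasm, was lower in cerebellum by -1.98 ± 0.18 in WT and -1.65 ± 0.26 in Snx14-KO mice. Dusp1 and Dusp4 were not called. Gadd45g, a stress sensor, was at 28.4, 24.6 and 21.9 CPM in WT cerebellum and 12.5, 11.8 and 16.3 CPM in WT cortex, a difference of 0.89 ± 0.14 in WT and 1.19 ± 0.12 in Snx14-KO mice. Ier3 was higher in cerebellum by 0.76 ± 0.20 and 0.86 ± 0.16. Ier2, Klf2, Gadd45b, Per1, Sik1 and Tiparp were called in neither genotype.

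**Figure D1:**
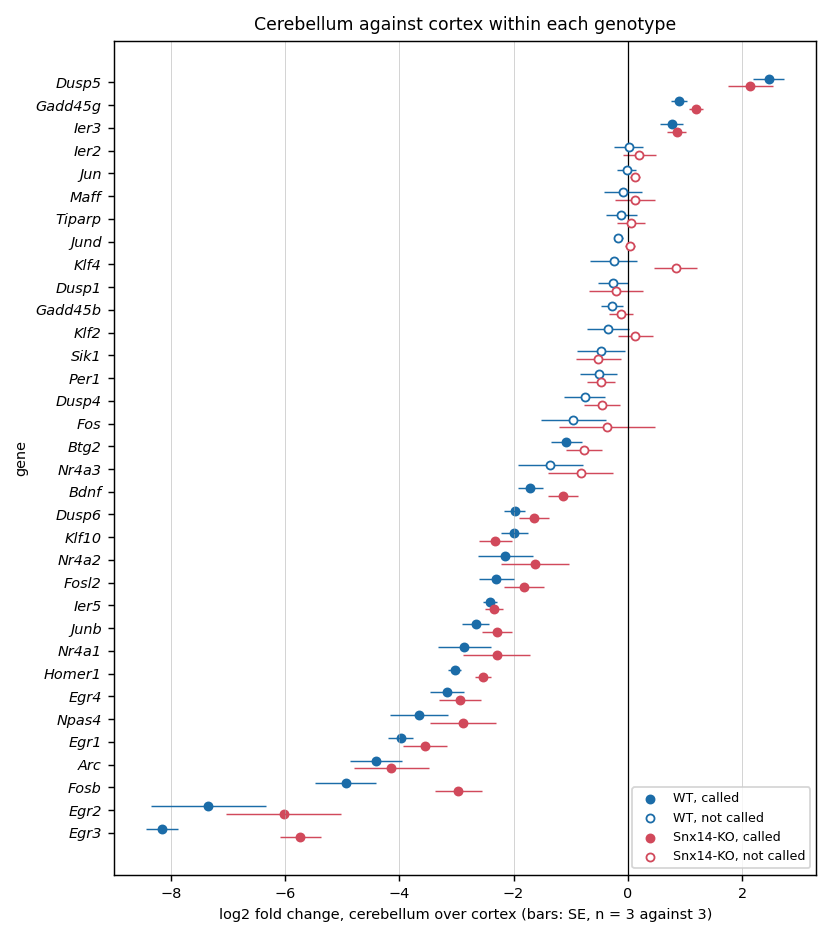
Log2 fold change of each of the 34 genes in cerebellum over cortex, in WT (blue) and Snx14-KO mice (red), with bars of 1 SE (3 libraries against 3); filled points were called (adjusted p under 0.05 and absolute log2 fold change over 0.50, edgeR). Egr3 lies furthest to the left at -8.15 in WT mice, Egr2 next to it rests on at most 5 reads per cerebellar library, and Dusp5 furthest to the right at 2.46.

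By class, the early members had a median difference between tissues of -2.76 in WT and -2.29 in Snx14-KO mice, the delayed members -1.71 and -1.13, and the other members -0.35 and 0.04. Of 16 early members, 10 were called lower in WT cerebellum and none higher, and of 9 delayed members 5 were called lower and 1 higher, against 21.4% of all genes called lower and 19% higher. Without Fosb, Egr2 and Egr3, 7 of 13 early members were called lower. Early minus delayed median was -1.06 in WT and -1.16 in Snx14-KO mice. No order of the classes can be read from it, since in WT mice it turned to 0.63 without Fosb, Egr2 and Egr3 (early median -1.08), and counting the other members as early gave 0.75 in WT and 0.62 in Snx14-KO mice. Without Egr2 it was -1.16 in Snx14-KO mice. Per kilobase of exon, Jund had the highest level of the 34 in all 4 groups (99.3 ± 8.69 CPM per kilobase in WT cerebellum and 112 ± 6.51 in WT cortex, SD, n = 3). Arc, Egr1, Junb and Egr3 followed it in WT cortex, at 106 ± 66.5, 73.4 ± 24.2, 50.0 ± 17.9 and 43.6 ± 9.88 CPM per kilobase, and Jund and Arc, or Arc and Egr1, did not differ beyond their spread. In WT cerebellum Dusp5, Gadd45g, Jun and Dusp1 followed Jund, at 33.7 ± 7.34, 21.3 ± 2.79, 18.0 ± 3.52 and 12.5 ± 3.33 CPM per kilobase.

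Mice of one genotype differed from each other in these genes more than in most others. Spread was measured as the SD of log2(CPM + 0.5) around the group means, over genes with at least 10 counts in 3 libraries of the tissue, a rule set after the values had been seen and used as a description only. In cerebellum 13 of 33 members lay above the 95th percentile of 18369 genes (5% by construction) and 5 above the 99th (1%). These 5 were Fos, Nr4a2, Nr4a3, Nr4a1 and Npas4. The 13 include Fosb and Egr3, which met this rule through the Snx14-KO libraries. In WT cerebellum Fosb had only 20, 6 and 1 reads and Egr3 only 21, 8 and 7. In cortex 22 of 34 lay above the 95th percentile of 18350 genes (5%) and 15 above the 99th (1%). The median member had an SD of 0.352 in cerebellum and 0.596 in cortex, against 0.152 and 0.143 for all genes.

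Fos shows the range. It was at 45.3, 9.49 and 19.2 CPM in cerebellum of WT mice 1, 2 and 3 and at 3.73, 61.9 and 15.4 CPM in that of Snx14-KO mice 1, 2 and 3, so the highest library was 16.6 times the lowest. In cortex it was at 75.6, 15.6 and 52.9 CPM in WT and 7.47, 61.3 and 35.5 CPM in Snx14-KO mice, a ratio of 10.1. Snx14-KO mouse 1 was the lowest of the 6 mice and WT mouse 1 and Snx14-KO mouse 2 the highest in both tissues. In cortex, WT mouse 1 held the highest value of 25 of 34 members, and Snx14-KO mouse 1 the lowest of 26. In cerebellum, Snx14-KO mouse 2 held the highest value of 16 members, 11 of them among the 16 early ones, and the lowest of none.

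**Figure D2:**
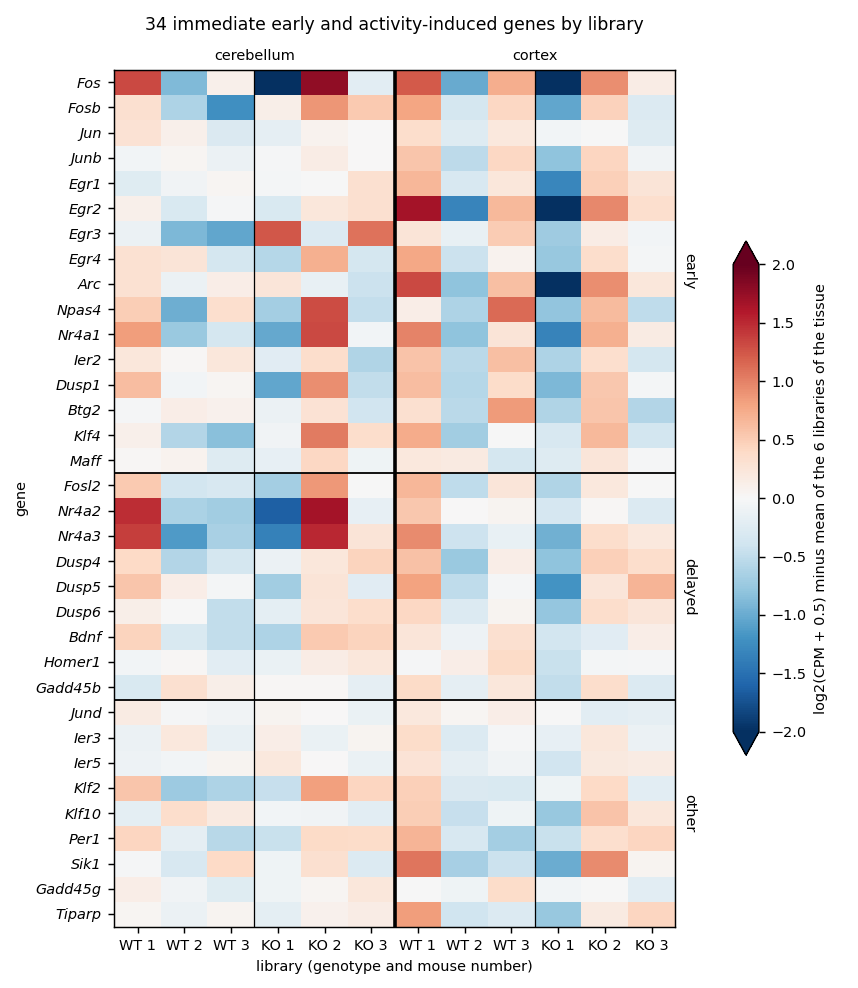
Log2(CPM + 0.5) of each gene in each library minus the mean of the 6 libraries of that tissue, with cerebellum on the left, cortex on the right, and early, delayed and other members from top to bottom; red is above and blue below the mean. The column of Snx14-KO mouse 1 in cortex holds the lowest value of 26 of 34 genes, and that of WT mouse 1 the highest of 25.

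Several of the widest spreads were found in 1 tissue and not in the other. Arc differed 12.2 times between the highest and lowest cortex library and 1.70 times between those of cerebellum. Egr1 differed 3.91 times in cortex and 1.49 times in cerebellum, and Junb 2.60 and 1.22 times. Nr4a2 went the other way. It was at 30.7, 6.71 and 6.44 CPM in WT and 3.11, 35.0 and 9.58 CPM in Snx14-KO cerebellum, a ratio of 11.3, and varied 1.84 times in cortex. These ratios describe 6 mice and were not tested against each other.

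**Figure D3:**
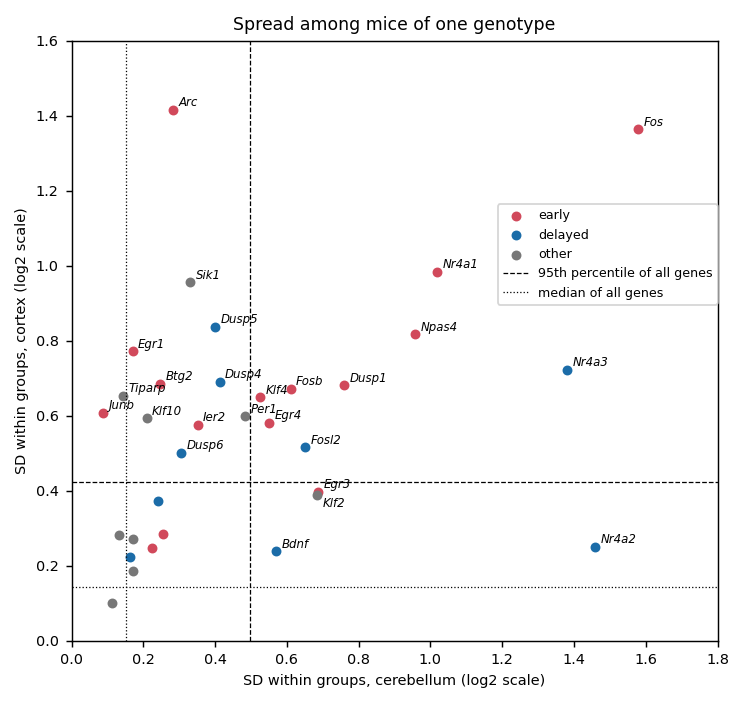
SD of log2(CPM + 0.5) around the group means in cerebellum (x axis) and cortex (y axis) for the 33 genes with enough counts in both tissues, colored by class; dashed lines mark the 95th percentile and dotted lines the median of all genes in each tissue. Fos, Nr4a1, Nr4a3 and Npas4 lie beyond the dashed lines in both tissues, Arc and Egr1 only in cortex, and Nr4a2 and Bdnf only in cerebellum.

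The mouse that was high in one tissue tended to be high in the other for some members. Over the 6 mice, 33 members had enough counts in both tissues, and 7 of them had a Pearson's r over 0.8 between the log2(CPM + 0.5) values of cerebellum and cortex, against 4.51% of 17356 genes. The median r was 0.538 for the members and 0.118 for all genes. The highest was that of Per1, a repressor of the circadian clock that is also induced by CREB, at r = 0.98 (exact two-sided permutation p = 0.00417) and Spearman's rho = 0.94 (exact p = 0.0167). Fos had r = 0.94 (exact p = 0.00278) and the same rho, and Nr4a3 r = 0.91 (exact p = 0.00694). Nr4a1, Maff, Dusp1 and Npas4 had r = 0.89, 0.85, 0.84 and 0.80, with rho from 0.77 to 0.94. The r of Maff rested on few reads, 18 to 33 per cerebellar and 15 to 28 per cortex library. No member passed Benjamini-Hochberg adjustment over all 17356 genes (adjusted p from 0.80 to 0.87 for these 7), and with 6 mice an exact test cannot give a p below 0.00139.

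Leaving out the 2 mice whose cerebellar value lay farthest from the median left r at 0.93 for Fos, 0.97 for Per1, 0.92 for Nr4a3 and 0.95 for Nr4a1, and lowered it to 0.62 for Dusp1. Taken around the mean of each genotype, r was 0.94 for Fos, 0.98 for Per1 and 0.97 for Nr4a3. The other members ranged widely. Klf2, Dusp4, Tiparp, Fosl2 and Ier2 had r from 0.71 to 0.79, Egr1 and Arc had 0.004 and -0.11, and 4 members had an r of -0.69 or lower, namely Ier3 (-0.82), Ier5 (-0.77), Gadd45g (-0.76) and Egr3 (-0.69). These rested on few mice: without the 2 farthest mice r was 0.82 for Gadd45g, -0.05 for Egr3, -0.35 for Ier5, -0.59 for Ier3 and -0.0047 for Tiparp. Both tissues of a mouse share its handling and time of death, which were not given in the sources used here. The mice numbered 1 in both genotypes were female by their sex-linked genes and those numbered 2 and 3 male, so the mice with the highest and the lowest Fos in cortex were both female. Lists of 14 clock, 9 glucocorticoid-induced and 8 heat shock genes were scored as the mean deviation of log2(CPM + 0.5). The clock list was at 0.010, 0.041 and -0.162 in WT and 0.005, 0.051 and 0.055 in Snx14-KO cerebellum, and at 0.045, 0.091 and -0.233 against -0.100, 0.084 and 0.112 in cortex. It was lowest in WT mouse 3, next lowest in Snx14-KO mouse 1 and highest in Snx14-KO mouse 3 in both tissues, and Per1 was lowest in WT mouse 3 in both as well. In cerebellum of WT mice 1, 2 and 3 and Snx14-KO mice 1, 2 and 3, the glucocorticoid list was at -0.287, 0.324, -0.611, -0.308, 0.207 and 0.675, and the heat shock list at -0.012, -0.185, 0.125, -0.136, 0.206 and 0.002. In cortex the glucocorticoid list was at -0.103, 0.190, -0.292, -0.226, 0.064 and 0.367, and the heat shock list at -0.084, -0.155, 0.168, -0.092, 0.118 and 0.045. The heat shock list was highest in Snx14-KO mouse 2 in cerebellum, where Fos was highest too, but in cortex it was highest in WT mouse 3 and Fos in WT mouse 1. The part of any of these lists in the member values was not tested.

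**Figure D4:**
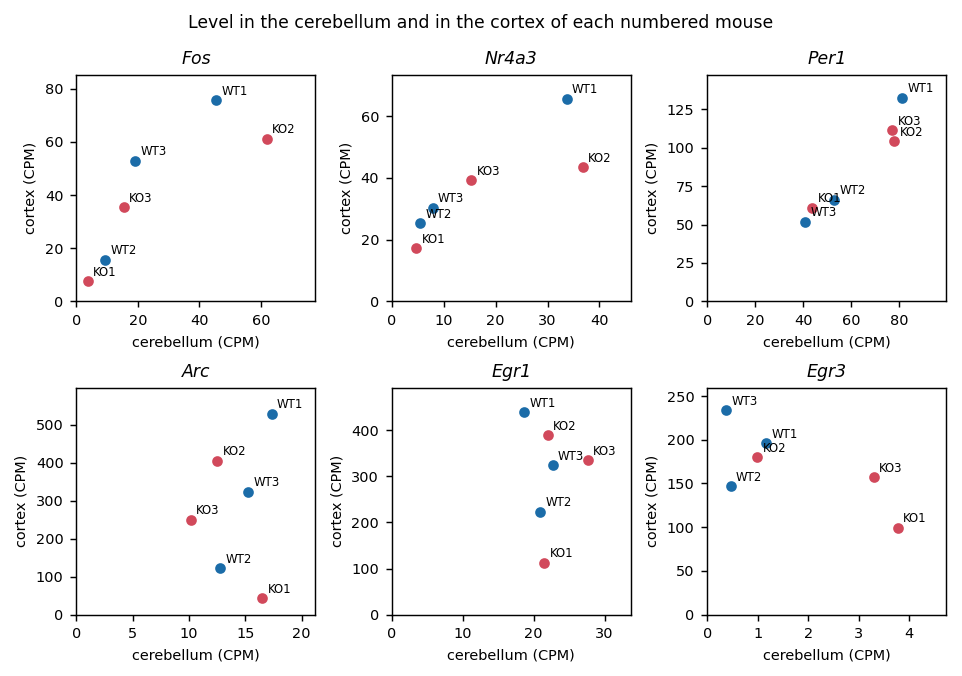
Level in cerebellum (x axis, CPM) and cortex (y axis, CPM) of each of the 6 numbered mice for Fos, Nr4a3, Per1, Arc, Egr1 and Egr3; WT mice are blue and Snx14-KO mice red. For Fos, Nr4a3 and Per1 the level in cortex rises with that in cerebellum (r = 0.94, 0.91 and 0.98 on the log2 scale), while for Arc and Egr1 the mice differ far more in cortex (12.2 and 3.91 times) than in cerebellum (1.70 and 1.49 times).

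The promoters of the 7 members with r over 0.8 are given here because they hold the letters that CREB and related factors are known to read. Promoter windows ran from 250 bases before to 50 bases after each RefSeq gene start (GRCm38.p6), and 27 members had one or more, 41 windows in all. The full cAMP response element TGACGTCA was present on either strand in a window of Dusp1, Btg2 and Maff, and in 1.79% of all 32851 windows. The shorter motif TGACG, which lies within it, was present on either strand in a window of 18 of 27 members, and in 20.8% of all windows (23% of all genes). All 7 members with r over 0.8 held it, and so did 11 of the 20 remaining members with a window. The windows of 30 bases printed were chosen after the values had been seen, and each is written from 5′ to 3′ on the strand of the gene with the match in capitals. A match on the opposite strand reads CGTCA. The match is a description of the letters, not a measured binding site.
Fos, chr12:85473811-85473840, match at -66 to -62 from the start: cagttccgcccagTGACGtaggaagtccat
Nr4a1, chr15:101266793-101266822, match at -40 to -36: gcccctctccatgCGTCAcggagcgcttaa
Nr4a3, chr4:48045145-48045174, match at -147 to -143: cctgtggcataaaTGACGtgccgagagagc
Npas4, chr19:4990124-4990153, match at -169 to -165: cgacgtcacgggaTGACGtcggaagtctgg
Per1, chr11:69100007-69100036, match at -132 to -128: tgagctcagcggcTGACGtcggtttccctg
Dusp1, chr17:26508597-26508626, full element at -143 to -136: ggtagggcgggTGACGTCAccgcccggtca
Maff, chr15:79347480-79347509, full element at -29 to -22: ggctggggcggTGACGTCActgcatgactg
The windows of Egr2 and Dusp5 held the CArG box that SRF reads, as did 1.63% of all windows. Dusp5 was higher and Egr2 lower in cerebellum, and the Dusp5 window has 2 such boxes side by side. Egr2 has several starts, and its position is counted from one of them.
Dusp5, chr19:53529053-53529082, CArG box at -82 to -73: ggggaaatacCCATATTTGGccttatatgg
Egr2, chr10:67537787-67537816, CArG box at -72 to -63: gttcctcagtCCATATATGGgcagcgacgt

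Between Snx14-KO and WT cerebellum no member was called. Of 33 members tested, 0 passed with edgeR's quasi-likelihood test, against 0.00549% of 18201 genes (1 gene, Snx14), 2 had an unadjusted p under 0.05 (8.15% of all genes), and DESeq2 called 1, Egr3, among 164 genes. None had groups that did not overlap (12.4% of all genes). Egr2 had too few reads to be tested. The median member differed by 0.14 on the log2 scale, against 0.00 for all genes, with 22 members higher and 11 lower in Snx14-KO mice (49.9% of all genes were higher) and a range from -0.39 to 2.02. Without Fosb and Egr3, 20 of 31 were higher, the median was 0.13 and the highest value 1.02. Of all 33 members, 4 differed by more than 0.50 (8.82% of all genes). They were Klf4, Klf2, and Fosb and Egr3, which met the filter on low counts through the Snx14-KO libraries. The lean of the 33 members towards higher values rested on 1 library: without Snx14-KO mouse 2, 15 were higher and 18 lower, and the median was -0.11. Early and delayed members did not separate, with medians of 0.14 and 0.21.

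Egr3 was the member with the largest difference. It had 21, 8 and 7 reads in WT and 79, 18 and 61 reads in Snx14-KO cerebellum, so that Snx14-KO mice 1 and 3 lay above all WT mice and Snx14-KO mouse 2 lay within their range. Egr3 and Fosb met the filter on low counts through the Snx14-KO libraries, with 10 reads or more in only 1 WT library. The log2 fold change of Egr3 was 2.02 ± 0.57 (SE, adjusted p = 0.349, edgeR). It was called with DESeq2 (2.02, adjusted p = 0.0477), without a filter on low counts (2.02, adjusted p = 0.0107) and without Snx14-KO mouse 2 (2.40, adjusted p = 0.0387, edgeR). These settings called 164, 347 and 254 genes in all, and with a filter met through the group where Egr3 is high its calls carry no weight of their own. At these counts Egr3 in Snx14-KO cerebellum was still at most 3.78 CPM, against 99.3 CPM in the lowest cortex library. As with Egr3, the cerebellar values of Mef2c and Camk2a, both cortex-rich genes, were above those of Snx14-KO mouse 2 in mice 1 and 3. Mef2c, a transcription factor of activity-dependent programs, was at 38.5, 39.7 and 37.9 CPM in WT and 57.0, 40.4 and 62.7 CPM in Snx14-KO cerebellum, and Camk2a, a calcium-dependent kinase, at 136, 143 and 135 against 206, 136 and 184 CPM. Neither was called (adjusted p = 0.381 and 0.485, edgeR), and both were chosen after their values were seen. The cortical excitatory neuron markers as a list, which holds Camk2a, did not share this order. Of 7 tested, 3 were higher and 4 lower in Snx14-KO cerebellum, and their score was 0.083, 0.034 and -0.035 in WT and -0.049, 0.096 and -0.130 in Snx14-KO mice 1, 2 and 3. Tbr1, one of its transcription factors, was at 0.778, 0.637 and 0.958 CPM in WT and 0.622, 1.21 and 0.325 CPM in Snx14-KO cerebellum. The granule cell markers had lower values in Snx14-KO cerebellum for 9 of 9 genes, 4 of them with an unadjusted p under 0.05 (8.15% of all genes), and a score of 0.233, 0.201 and 0.004 in WT and -0.235, 0.065 and -0.267 in Snx14-KO mice. Fitted values were also lower for 7 of 8 Purkinje cell, 8 of 8 oligodendrocyte, 6 of 6 choroid plexus and 5 of 5 blood markers, and WT mouse 1 stood apart in its choroid plexus score (-2.87, the others from -0.585 to 1.91), which put the mean choroid plexus score the other way, at -0.107 in WT and 0.107 in Snx14-KO mice. The part of these in the difference of Egr3 was not tested.

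Klf4, a Krüppel-like factor, was at 4.11, 2.37 and 1.92 CPM in WT and 3.59, 8.38 and 4.98 CPM in Snx14-KO cerebellum. Its log2 fold change of 1.02 ± 0.37 did not pass adjustment (adjusted p = 0.470, edgeR), and the groups overlapped. Fosb had 20, 6 and 1 reads in WT and 19, 34 and 25 reads in Snx14-KO cerebellum (1.46 ± 0.69, adjusted p = 0.658, edgeR). Fos differed by 0.14 ± 0.82, which is far within the spread among mice. The meningeal fibroblast markers had higher values in Snx14-KO cerebellum for 12 of 12 genes, with scores from 0.351 to 0.607 in Snx14-KO and -0.820 to -0.066 in WT mice. The microglia markers were higher for 10 of 10, with a score of 1.06 in Snx14-KO mouse 3. The astrocyte markers had higher values for 7 of 8 genes, with scores from 0.035 to 0.323 in Snx14-KO and -0.208 to -0.041 in WT mice. An unadjusted p under 0.05 was found for 9, 6 and 5 genes of these lists (8.15% of all genes). The endothelial markers had higher values for 8 of 10 genes, 2 of them with an unadjusted p under 0.05. Their score was 0.066, 0.292 and -0.108 in Snx14-KO mice 1, 2 and 3 and from -0.155 to -0.038 in WT mice. None of these markers was called. Their part in the member values was not tested.

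Between Snx14-KO and WT cortex no member was called either. Of 34 members tested, 0 passed with edgeR's quasi-likelihood test, against 0.00548% of 18255 genes (1 gene, Snx14), 3 had an unadjusted p under 0.05 (4.5% of all genes), and DESeq2 called 0. Values were lower in Snx14-KO mice for 29 of 34 members and for 16 of 16 early ones, with a median of -0.25 over the members and 0.00 over all genes, of which 50% were higher. A difference over 0.50 was found for 2 members, Fosb (-0.53 ± 0.34) and Egr2 (5.48% of all genes). The early median was -0.34, the delayed median -0.28 and that of the other members 0.00, and the early minus delayed difference lay between -0.29 and 0.061 with 1 library left out. Here too the direction rested on single libraries. Without WT mouse 1, 13 of 34 members were lower and the median was 0.05, and without Snx14-KO mouse 1, 16 of 34 were lower and the median was 0.01. Without Snx14-KO mouse 2 all but 1 were lower. Arc, at 528, 121 and 324 CPM in WT and 43.3, 405 and 249 CPM in Snx14-KO cortex, differed by -0.48 ± 0.60. Fos differed by -0.46 ± 0.57 and Egr2 by -0.59 ± 0.68.

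Groups did not overlap for 2 of 34 members in cortex, Jund and Homer1, against 9.29% of all genes. Jund, the AP-1 subunit that is present without stimulation, was at 198, 176 and 188 CPM in WT and 171, 147 and 150.3 CPM in Snx14-KO cortex. Its log2 fold change was -0.26 ± 0.08 (adjusted p = 0.996, edgeR), below the fold required for a call. Homer1 was at 268, 298 and 355 CPM in WT and 200.3, 266 and 268 CPM in Snx14-KO cortex, with the highest Snx14-KO value just below the lowest WT value (-0.32 ± 0.12, adjusted p = 0.996). Nr4a2 had a log2 fold change of -0.40 ± 0.14 (adjusted p = 0.996) and groups that overlapped. In the same libraries the oligodendrocyte markers had lower values in Snx14-KO cortex for 8 of 8 genes. Of these, 6 had an unadjusted p under 0.05 (4.5% of all genes). Their score was -0.035, -0.560 and 0.071 in Snx14-KO mice 1, 2 and 3 and from 0.137 to 0.220 in WT mice. Values were higher for 12 of 12 meningeal fibroblast markers, 7 of them with an unadjusted p under 0.05 (4.5% of all genes), and for 10 of 10 endothelial markers, and lower for 4 of 4 choroid plexus markers tested and 5 of 5 blood markers. The meningeal fibroblast score was 1.11 in Snx14-KO mouse 2, and the choroid plexus score was 1.36 in WT mouse 1. Their part in the member values was not tested.

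**Figure D5:**
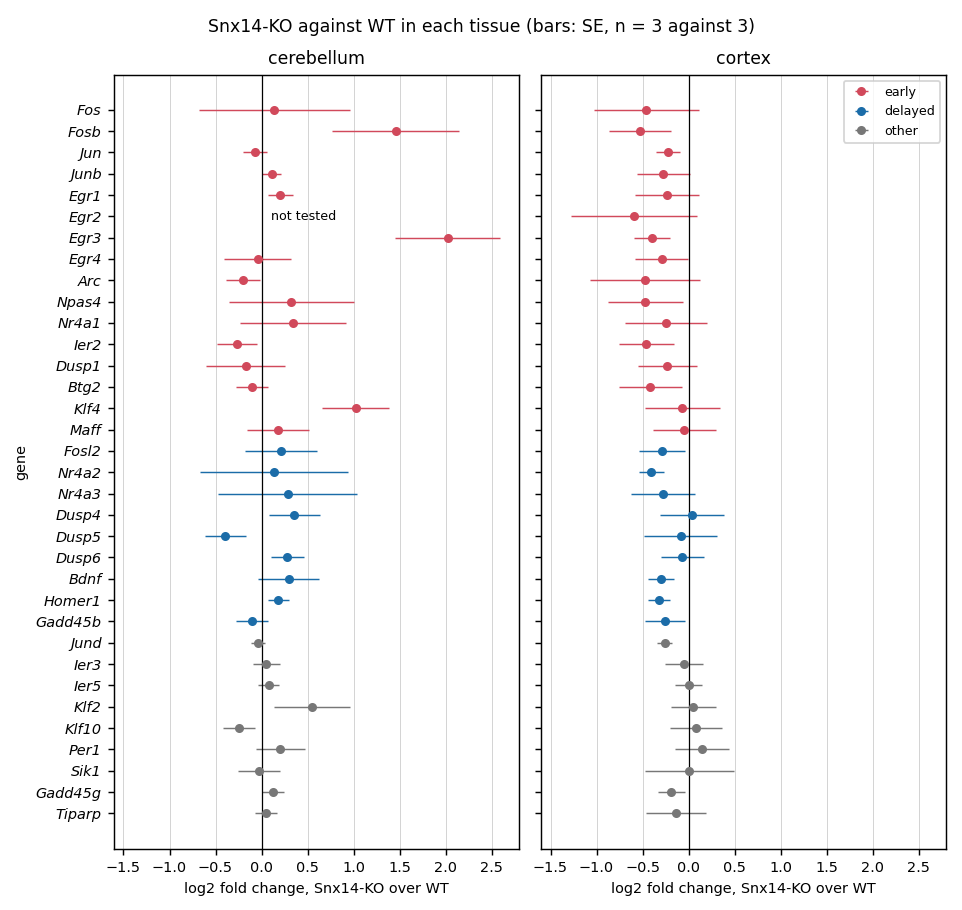
Log2 fold change of each gene in Snx14-KO over WT in cerebellum (left) and cortex (right), with bars of 1 SE (3 libraries against 3), colored by class; Egr2 was not tested in cerebellum. In cortex all 16 early members lie left of 0 and none was called, and in cerebellum Egr3 lies furthest out at 2.02.

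The genotype effect was also compared between tissues, with the interaction term of a fit over all 12 libraries. This fit did not pair the tissues of a mouse. No member was called of 34, against 0% of 19380 genes, 3 members had an unadjusted p under 0.05 (5.68% of all genes), and DESeq2 called 0 members. The effect was higher in cerebellum for 31 of 34 members (49.1% of all genes), with a median of 0.30, and for 28 of 31 without Fosb, Egr2 and Egr3, which had under 10 reads in a cerebellar library. In all, 10 members differed by more than 0.50 (15.5% of all genes), and these include Fosb, Egr2 and Egr3 with their few reads. With the mouse as a block the effect was higher in cerebellum for 29 of 34 members. Without Snx14-KO cerebellum 2 it was higher for 20, without Snx14-KO cortex 1 for 22 and without WT cortex 1 for 23. Egr3 had the smallest p of the members, with a difference of 2.42 ± 0.64 (adjusted p = 0.413, edgeR), and was called without Snx14-KO cerebellum 2 (2.79, adjusted p = 0.0147, edgeR). That setting called 253 genes in all, against 0 in the main fit. Egr3 met the filter through the libraries where it is high, so this call carries no weight of its own. The differences of Fosb (1.97 ± 0.82) and Homer1 (0.49 ± 0.19) had adjusted p of 0.80 and 0.71.

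The genes upstream of the members and other activity-induced genes were taken as lists. Of 27 genes of upstream signaling (CREB, SRF and MEF2 factors, their coactivators and kinases), none was called between genotypes in either tissue, with medians of -0.05 in cerebellum and 0.02 in cortex. Camk4, a nuclear kinase of CREB, had the smallest p in cerebellum, at 92.8, 89.4 and 93.4 CPM in WT and 67.2, 73.1 and 60.7 CPM in Snx14-KO mice (adjusted p = 0.145, edgeR). Its groups did not overlap, as was the case for 12.4% of all genes in cerebellum. Between WT tissues, 16 of these 27 genes were called lower and 2 higher in cerebellum (21.4% and 19% of all genes), and the median was -0.65. Of 27 other activity-induced genes, 15 were called lower and 3 higher in WT cerebellum (the same shares of all genes apply), with a median of -0.67, and none was called between genotypes. Among them Nptx2, a secreted synaptic pentraxin, was at 2.56, 2.03 and 1.12 CPM in WT and 4.11, 3.20 and 4.87 CPM in Snx14-KO cerebellum, and at 61.4, 58.7 and 81.8 against 45.6, 58.3 and 46.4 CPM in cortex. Its groups did not overlap in either tissue (12.4% of all genes in cerebellum and 9.29% in cortex). In cortex the lowest WT and the highest Snx14-KO value nearly touched, at 58.7 and 58.3 CPM. Its log2 fold changes were 1.11 and -0.42, and the difference between them was 1.52 (adjusted p = 0.190, edgeR interaction term). Rgs4, a regulator of G protein signaling, was at 19.3, 16.7 and 17.8 CPM in WT and 28.6, 21.5 and 27.8 CPM in Snx14-KO cerebellum (0.55, adjusted p = 0.242, edgeR).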

How the data were processed

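The deposited counts were whole reads per gene for 12 libraries. Per the labels and the study's methods, the authors sequenced paired reads, aligned them to GRCm38 with STAR and counted exon reads with featureCounts (Subread 2.0.1) on GENCODE vM21 genes. The tables hold fragments per gene without strand, reads that overlap more than 1 gene are counted for each, and reads with several alignments are left out. Of 81881 features, 26248 carried only numbers in place of gene names (at most 0.0632% of counts) and 97 were spike-ins, all at 0, and both were left out. Library totals were 16672589 to 19887427.

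Members were matched by GENCODE vM21 name, and 34 of 34 were found. The members and all lists were chosen with earlier results of these data known. Each comparison was fitted with edgeR 4.0.16 (R 4.3.3) on the libraries it compares, with TMM scaling, filterByExpr and the quasi-likelihood test, after a test on simulated counts. DESeq2 1.42.0, other scalings, no filter, 1 fit over all libraries, the mouse number as a block and each library left out were tried. All members are named, and from the other lists at most the 3 genes of smallest p. Tbr1 is also named, as a marker looked at after the values were seen. The SD rule, the r of 0.8, the pseudocount of 0.5 and the printed windows were set after seeing values.

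Labels name the mouse in both tissues, so the numbers pair the tissues. Deviations of same-numbered libraries correlated at 0.107, 0.141 and 0.0745 in WT and 0.321, 0.0172 and 0.0907 in Snx14-KO mice. Snx14-KO cerebellum 2 with cortex 3 (0.0438) and cerebellum 3 with cortex 2 (0.151) were higher than their own numbers, so for these mice the pairing rests on the labels alone. Sex-linked genes gave the same sex in both tissues for 6 of 6 mice. WT and Snx14-KO mice share only a number. The labels name separate mice within each group, so p-values measure the spread among these mice. Which mice share a litter, sequencing batches and time of death were not given in the sources used here.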

Additional observations from a re-analysis of the deposited data

How the results depend on the processing

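Counts of called members kept within 1.5 times of the reported ones in both tissue comparisons under every alternative (20 to 24 in WT, 18 to 22 in Snx14-KO mice). With the mouse number as a block (replicate block) they were 23 and 22. The block changed no call between genotypes, but there it matches WT and Snx14-KO mice that share only a number, so it checks no pairing. Between Snx14-KO and WT cerebellum, DESeq2 and no filter each gave 1 call (Egr3), and leaving out 1 library gave 0 to 1. In cortex no filter gave 2 (Fosb, Egr2). For the difference between tissues no filter gave 4 (Fos, Fosb, Egr3, Nr4a1), and leaving out 1 library 0 to 1. Over all genes the unfiltered fits called 347, 149 and 386 genes for cerebellum, cortex and their difference, against 1, 1 and 0, and 254 and 253 were called in cerebellum and in the difference without Snx14-KO cerebellum 2. A fit of cerebellum over all 12 libraries called 45. DESeq2 called 164, 9 and 35. The cause was not tested.

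With 1 library left out, the early minus delayed median between genotypes in cerebellum lay between -0.44 and -0.000611. In the tissue comparison it lay between -1.25 and -0.74 in WT and between -1.39 and -0.72 in Snx14-KO mice, and counting other members as early gave 0.75 and 0.62. Fos reversed between genotypes in cerebellum with the block (-0.29), which there matches mice that share only a number. With 1 library left out it ranged from -1.36 to 0.90. In cortex, Fos ranged from -1.15 to 0.033, Arc from -1.14 to 0.069 and Egr2 from -1.26 to 0.24. Fos between tissues of Snx14-KO mice ranged from -1.87 to 0.31. Over the members tested (33 in cerebellum, 34 elsewhere), leaving out 1 library turned the sign in 37 of 198 values in cerebellum and 46 of 204 in cortex between genotypes, and in 12 and 14 of 204 between tissues. Scaling by total count moved the median of all genes between tissues to 0.15 in WT and 0.16 in Snx14-KO mice and the genes called higher from 3383 of 7020 to 4412 of 7381 in Snx14-KO mice, while the members stayed at 3 higher. At these depths Egr2 and Egr3 in cerebellum rest on 0 to 79 reads.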
